A study of Mus musculus with 12 samples.

Results

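CC chemokines are small secreted proteins that bind receptors on leukocytes and draw them into tissue. Ccl2 and Ccl7 are monocyte chemokines that share the receptor Ccr2, Ccl8 is known in mice as a ligand of Ccr8, Ccl11 (eotaxin-1) draws eosinophils through Ccr3, Ccl5 draws T cells, Ccl9 binds Ccr1, Ccl20 is the ligand of Ccr6, Ccl21a guides dendritic cells and T cells through Ccr7, and Ccl28 is an epithelial ligand of Ccr10 known for bringing antibody-secreting cells to the lactating gland. In a mammary gland fibroblasts, epithelium, endothelium and macrophages can each be a source. The genes described here are these 9, taken by name as rows of the count table, out of 21743 genes. Their rows were read in every library and in every cell class in order to ask which cells hold the transcripts in each gland and each tumor.

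The cells came from 2 Brca1-deficient (MMTV-Cre; Brca1flox/flox) mice of mixed C57BL/6 and 129/Sv strain that carried a mammary tumor. Mouse X2265 gave its mammary glands (MG1, the fourth pair) and its tumor (MT1), and mouse X738 likewise gave MG2 and MT2. All 4 groups share the genotype, no Brca1 wild-type tissue entered the comparison, the Cre is driven by the MMTV promoter and so acts mainly in epithelium. The age of these animals is not given in the sources used here: the methods put mice whose glands were taken at 3 to 4 months without naming them, and tumors of this genotype are described in the study as arising at a later age. Before Drop-seq (a droplet method that tags each transcript with a cell barcode and a unique molecular identifier, UMI) hematopoietic and endothelial cells were depleted, so the numbers of immune and endothelial cells below are those left after that step. MG1 and MG2 had 2 libraries each, MT1 had 5 and MT2 had 3, and these are libraries of 1 tissue of 1 animal, so a p-value between groups covers the spread between libraries only.

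The 12 libraries held 105 to 4874 cells and 693333 to 14841414 UMIs, with a median of 1784 to 4842 UMIs per cell. Brca1 was listed at 0 UMIs in both MG1 libraries and had 10 to 157 UMIs in each of the others, and these 3′ counts do not show whether the floxed exon was lost. Clustering without any chemokine or receptor gene gave 12 clusters. In the glands they were hormone-sensing-like and secretory-like luminal, basal-like, fibroblast-like and endothelial-like cells. In MT1 most cells lay in 2 clusters with epithelial markers, called the Sfrp1 cluster (3530 cells) and the Tnfrsf11b cluster (2481 cells) after a leading gene, and in the Prl2c3 cluster (1345 cells), which led with Prl2c3, Cav1 and S100a4 and stayed unnamed. In MT2 most cells lay in 3 clusters that stayed unnamed as well, the Grem1 cluster (4212 cells, or 40.8% of MT2 cells, with 3 of 15 fibroblast markers raised, Col1a2, Pdgfra and Col5a1), the Cenpe cluster (3568 cells, with 10 of 10 cell cycle markers) and the Lce1g cluster (1994 cells). The summed level of 10 epithelial markers was 629 to 863 CPM (UMIs per 1e6 UMIs of a library or class) in MT2 libraries against 7352 to 9415 CPM in MT1 and 10526 to 13317 CPM in the glands, so epithelial markers were low in MT2 although the cells had been enriched for epithelium. Immune-like cells numbered 175 in MT2 and 2 to 5 in each other group. Within a tissue's table, genes found in 1 to 3 cells are nearly absent (123 to 220 genes, against 731 to 789 genes found in exactly 4 cells), so a member listed at 0 in a group may have had a UMI in up to 3 cells.

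At least 1 member had a UMI in 12.3% of MG1 cells (95% Clopper-Pearson interval 10.2 to 14.8%), 7.58% of MG2 cells (6.54 to 8.73%), 18.1% of MT1 cells (17.2 to 19.0%) and 50.5% of MT2 cells (49.6 to 51.5%), when every cell was thinned to 800 UMIs. Without thinning these shares were 23.5%, 12.4%, 30.8% and 79.7%. Cells with UMIs of 2 or more members made up 16.5% of MT2 cells and 3.76% of MT1 cells, against 4.40% of MG1 cells and 3.38% of MG2 cells. The intervals cover counting error only. The share of cells with at least 1 member was highest in MT2 and lowest in MG2. Without MG1 replicate 1 it was 19.0% in MG1, so that MG1 lies below MT1 only with that library.

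**Figure D1:**
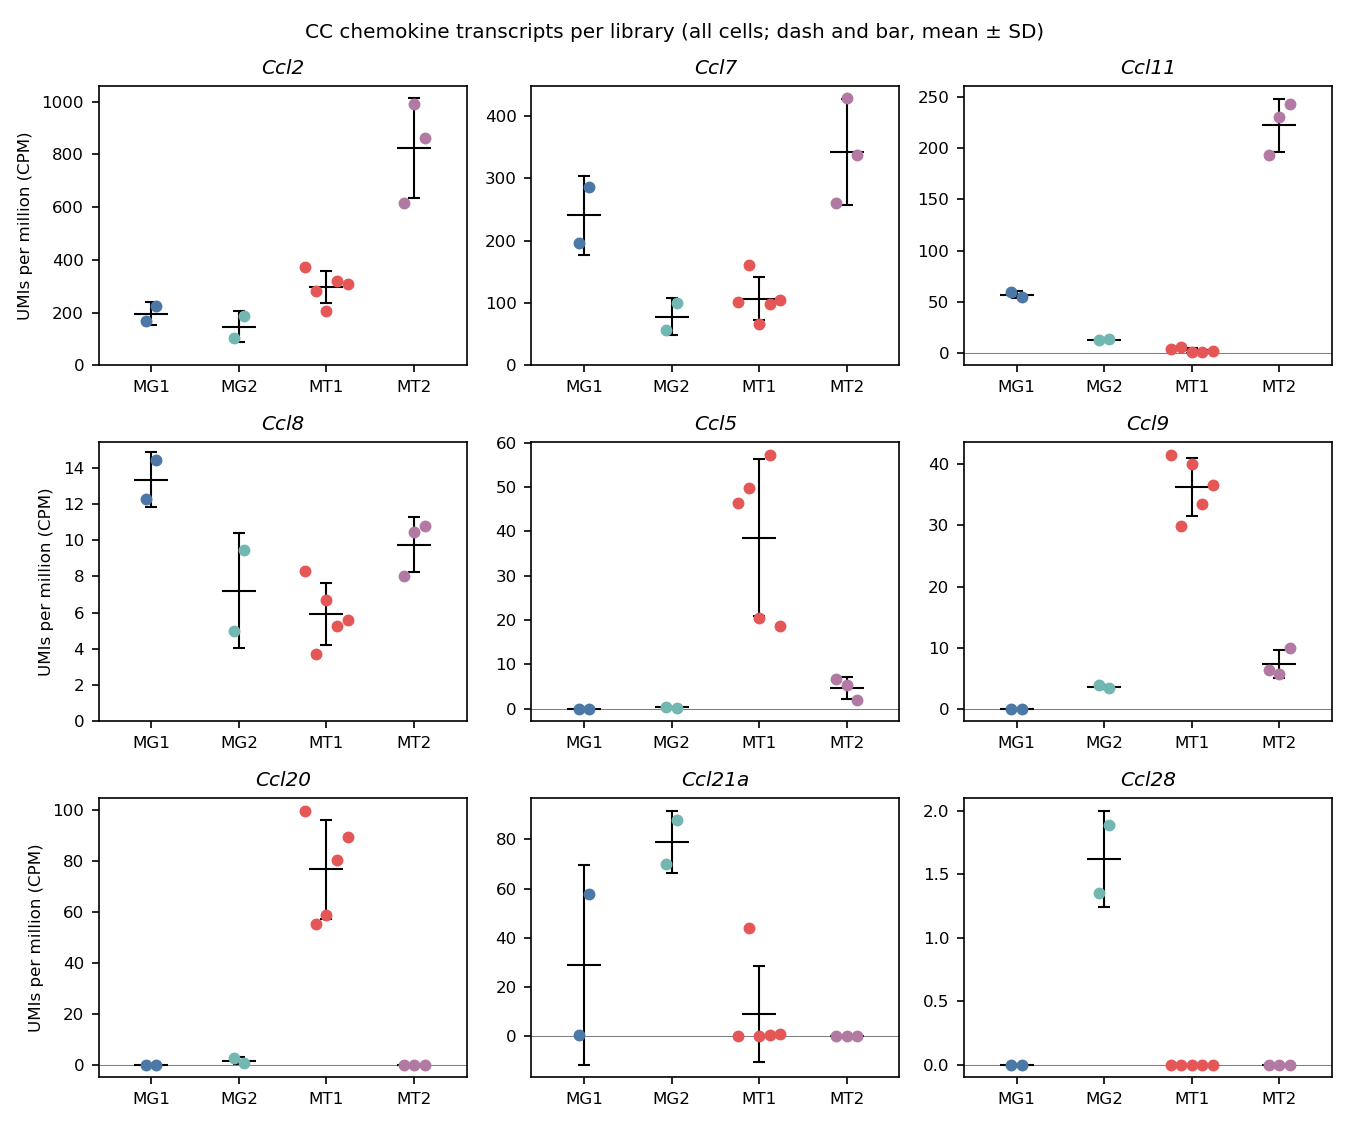
Level of each of the 9 genes in every library, in CPM of the library ( vertical axes starting near 0 and scaled per gene); points are libraries and the dash and bar give the mean ± SD of a group. Ccl2 and Ccl11 are highest in the 3 MT2 libraries, Ccl20 and Ccl9 in the 5 MT1 libraries, and Ccl21a in MG2.

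Ccl2 rose in both tumors, strongly in the second mouse. The CPM of Ccl2 was 167 and 226 in the MG1 libraries and 105 and 189 in the MG2 libraries. It was 372, 283, 208, 320 and 307 in the MT1 libraries, and 617, 991 and 863 in the MT2 libraries. All MT2 libraries lay above every other library, whereas the lowest MT1 library lay below the higher MG1 library. By edgeR's quasi-likelihood test on all cells of a library, the log2 fold change was 2.66 (SE 0.27, adjusted p = 2.27e-07) in MT2 against MG2 and 0.64 (SE 0.24, adjusted p = 0.029) in MT1 against MG1. The latter call was lost under RLE scaling (0.50, adjusted p = 0.0865), with DESeq2 (0.52, adjusted p = 0.0827), and on leaving out MG1 replicate 1 or 2, MT1 replicate 1, 4 or 5, or MT2 replicate 2 (adjusted p = 0.0573 to 0.176).

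Ccl7, which lies beside Ccl2 on chromosome 11, went opposite ways in the 2 mice. Its CPM was 196 and 286 in MG1 and 57.2 and 99.5 in MG2. In MT1 it was 102, 162, 66.2, 99.0 and 106, all below both MG1 libraries, and in MT2 it was 261, 429 and 337, all above both MG2 libraries. Ccl7 fell by 1.13 on the log2 scale in MT1 against MG1 (SE 0.26, adjusted p = 0.00148) and rose by 2.30 in MT2 against MG2 (SE 0.31, adjusted p = 5.64e-06).

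Ccl11 showed the same opposition on a larger scale. The CPM of Ccl11 was 59.8 and 54.8 in MG1 and 13.1 and 13.7 in MG2. It was 4.75, 6.74, 1.19, 1.13 and 2.24 in MT1 and 193, 230 and 243 in MT2, with no overlap between any pair of groups. Ccl11 fell by 4.51 on the log2 scale in MT1 against MG1 (SE 0.35, adjusted p = 3.89e-08) and rose by 4.21 in MT2 against MG2 (SE 0.34, adjusted p = 1.25e-08). Ccl8 was low everywhere: 12.3 and 14.4 CPM in MG1, 4.97 and 9.46 in MG2, 3.75 to 8.31 in MT1 and 8.02 to 10.8 in MT2. It fell by 1.15 in MT1 against MG1 (SE 0.32, adjusted p = 0.00527), a call lost without MG1 replicate 1 (adjusted p = 0.115), and its difference of 0.60 in MT2 against MG2 (SE 0.28, adjusted p = 0.0697) did not pass, whereas without MG2 replicate 2 it was 1.15 and passed (adjusted p = 0.0176). In these sums over all cells, fewer cells of a type and less RNA per cell cannot be told apart: fibroblast-like cells were 15.4% of MG1 cells, 5.82% of MG2, 1.79% of MT1 and 2.79% of MT2, and the part of this in the 4 results was not tested.

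Ccl20, Ccl9 and Ccl5 were higher in MT1 than in the other groups. Ccl20 stood at 99.8, 55.1, 58.8, 80.2 and 89.6 CPM in the MT1 libraries, at 2.49 and 0.709 CPM in MG2, and was listed at 0 in MG1 and MT2. Ccl9 stood at 41.6, 29.97, 40.1, 33.5 and 36.7 CPM in MT1, at 6.40, 5.72 and 9.90 in MT2, at 3.84 and 3.31 in MG2 and at 0 in MG1. Ccl5 stood at 46.3, 49.8, 20.5, 57.3 and 18.8 CPM in MT1, at 6.67, 5.37 and 1.91 in MT2, at 0.452 and 0.236 in MG2 and at 0 in MG1. Every MT1 library was above every library of the other groups for all 3 genes. A floor of 3 UMIs over MG1 stands for 1 UMI in each of 3 cells (the median count of positive MT1 cells for each gene). Against this floor the pooled MT1 level was 92.1-fold higher for Ccl20, 46.1-fold for Ccl9 and 45.6-fold for Ccl5 (adjusted p = 3.36e-07, 9.88e-08 and 8.89e-05). These ratios are not lower bounds, since up to 3 positive cells may be missing from MG1. A positive MT1 cell held up to 39 UMIs of Ccl20, 9 of Ccl9 and 42 of Ccl5. In MT2 against MG2, Ccl5 rose by 3.84 (SE 1.12, adjusted p = 0.00671) from 3 UMIs in MG2, a call lost without MG2 replicate 2 (adjusted p = 0.0582), and Ccl9 rose by 1.19 (SE 0.31, adjusted p = 0.00313). Ccl20 went the other way and was called lower in MT2 than in MG2 (adjusted p = 0.000258). The pooled MG2 level had a ratio of 23.0 to a floor of 3 UMIs over MT2, from 14 UMIs in MG2. Of these, 11 lay in MG2 replicate 1, and without that library the 3 that remain give a ratio of 10.1 to the floor of MT2 (exact Poisson interval 2.08 to 29.4, counting error only), with a fitted log2 change, which depends on the prior count, of -5.05 (adjusted p = 0.0152).

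Ccl21a was called lower in the tumor in mouse 2 and not in mouse 1. It stood at 70.0 and 87.9 CPM in MG2 and was listed at 0 in all 3 MT2 libraries, and was called lower there (adjusted p = 0.000211). No bound on this fold is given, since a positive MG2 cell held a median of 13 and up to 105 UMIs, and up to 3 positive cells may be missing from a group listed at 0. In MG1 it stood at 0.323 and 57.7 CPM and in MT1 at 0, 43.8, 0.297, 0.376 and 0.840 CPM, and the difference of -1.06 (SE 1.64, adjusted p = 0.593) did not pass. A single cell held 37 of the 41 Ccl21a UMIs of MG1 and a single cell of MT1 replicate 2 held 117 of the 124 of MT1, whereas in MG2 the 682 UMIs were spread over 41 cells. Without MT1 replicate 2 the difference in mouse 1 was -5.19 (adjusted p = 0.00446), and without MG1 replicate 2 it was 4.28. Without the highest 5% of doublet scores it was -5.43 and passed (adjusted p = 0.00178). Ccl21a has near-identical copies in the mouse genome, Ccl21b and Ccl21c, between which reads could be split, so its level is uncertain. Ccl28 had 6 and 8 UMIs in the MG2 libraries (1.36 and 1.89 CPM), was listed at 0 elsewhere and was too low to be tested.

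Of the 8 members tested, 7 were called in MT1 against MG1 (4 higher, 3 lower), where 61.9% of all 14106 genes tested were called (33.1% higher, 28.8% lower), and 7 in MT2 against MG2 (5 higher, 2 lower), where 65.6% were (32.3% higher, 33.3% lower). The median log2 fold change of the members was -0.21 and 1.74, against 0.09 and -0.04 over all genes. The effects of tumor against gland differed between the mice for 7 of 8 members by the interaction term (44.7% of all genes), with Ccl5 as the exception (adjusted p = 0.256). The comparisons of MT1 with MG1 and of MT2 with MG2 rest on 1 animal each. Between the tumors themselves, all 8 were called (66.4% of all genes), with Ccl2, Ccl7, Ccl8 and Ccl11 lower in MT1 by 1.53, 1.75, 0.79 and 6.50 on the log2 scale and Ccl9 and Ccl5 higher by 2.25 and 2.95. The Ccl21a call between the tumors was lost without MT1 replicate 2 (adjusted p = 0.193) and without the highest 5% of doublet scores (adjusted p = 0.184). With the mouse as the replicate and as a block, edgeR called 0 of 8 members and 0% of 15354 genes, with 1 member (Ccl5) and 2240 genes at an unadjusted p under 0.05; DESeq2 called 2 members, Ccl5 and Ccl9, and 5.98% of genes.

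**Figure D2:**
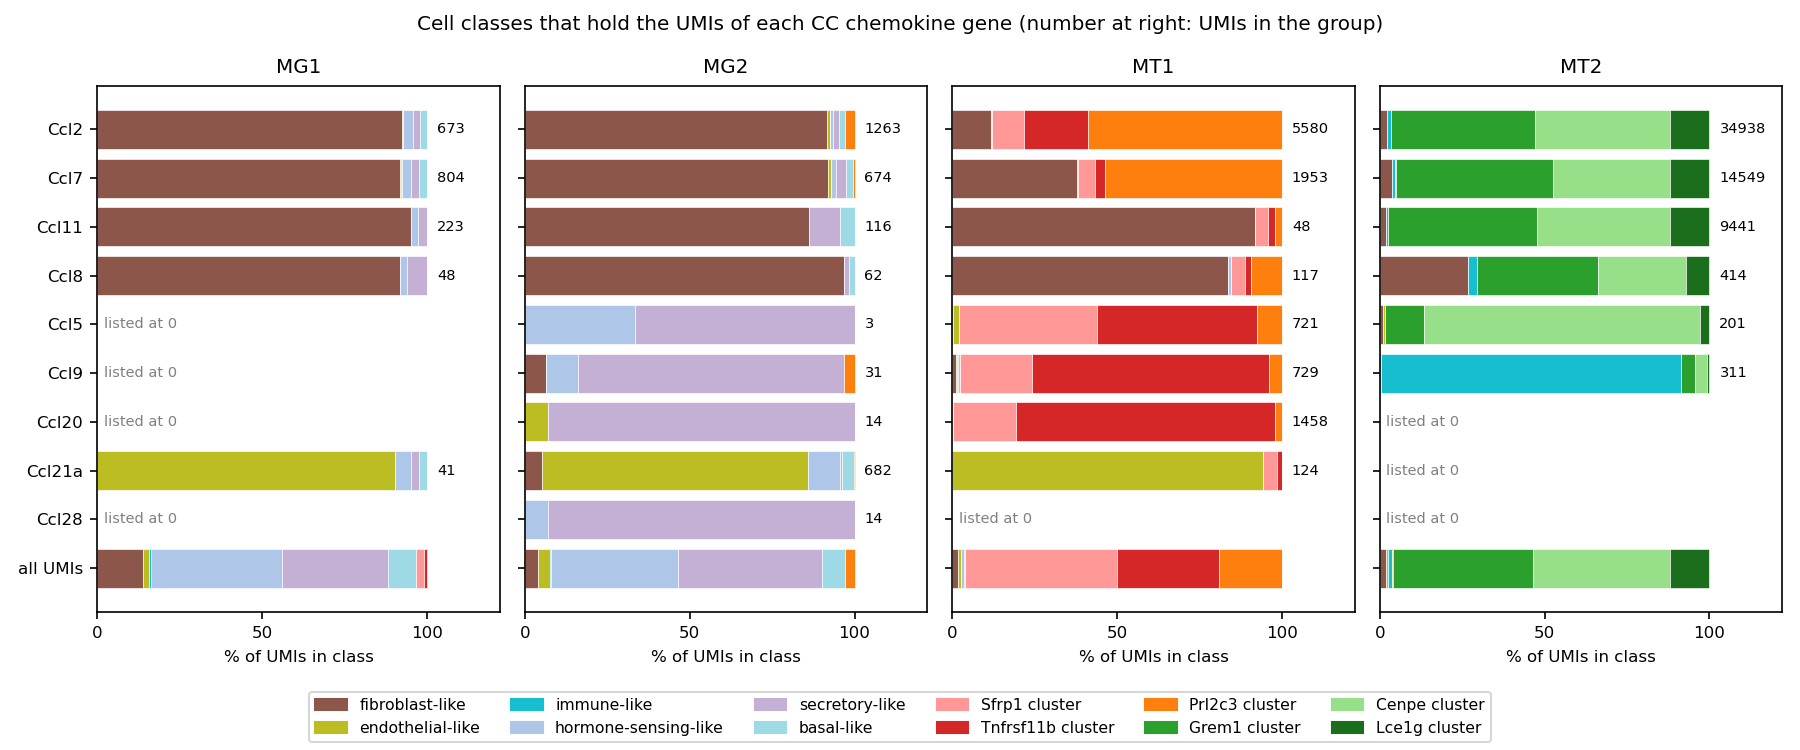
Percent of the UMIs of each gene that each cell class holds, per group, with the number of UMIs at the right of a bar and, in the lowest row, the share of all UMIs that the class holds. Ccl2, Ccl7, Ccl11 and Ccl8 lie mostly in fibroblast-like cells (brown) in both glands, Ccl20 and Ccl9 in the Tnfrsf11b cluster (red) in MT1, and Ccl9 in immune-like cells (turquoise) in MT2.

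In both glands Ccl2, Ccl7, Ccl8 and Ccl11 were found mostly in fibroblast-like cells. Fibroblast-like cells held 92.4% of the Ccl2 UMIs in MG1 and 91.8% in MG2, 91.8% of Ccl7 in each, 95.1% and 86.2% of Ccl11, and 91.7% and 96.8% of Ccl8, while they held 13.7% and 4.11% of all UMIs. These cells carried 15 of 15 fibroblast markers such as Col1a1, Dcn and Pdgfra. A Ccl2 UMI was found in 37.3% of fibroblast-like cells in MG1 and 65.4% in MG2 at 800 UMIs per cell (51.6% and 77.2% without thinning, at medians of 3222.5 and 2036.5 UMIs). In hormone-sensing-like cells, which are luminal epithelium, the share was 1.12% and 0.219% (5.60% and 1.21% without thinning, at medians of 4414 and 2568.5 UMIs). Secretory-like cells, the milk-forming luminal cells, held 25 of 31 Ccl9 UMIs, 13 of 14 Ccl20 UMIs and 13 of 14 Ccl28 UMIs in MG2, beside 43.7% of all UMIs.

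In MG1, 37 of the 41 Ccl21a UMIs lay in 1 endothelial-like cell. In MG2 Ccl21a marked a subset of endothelial-like cells, which held 80.6% of its UMIs. Of these, 367 UMIs lay in 22 of 29 cells of a subcluster led by Glycam1, which encodes a ligand of L-selectin on venules where lymphocytes enter tissue, and 182 lay in 5 of 23 cells of a subcluster with 4 of 6 lymphatic markers (Prox1, Lyve1, Mmrn1 and Reln). Epithelial genes were raised in both as well, 7 of 14 hormone-sensing markers in the first and 11 of 14 basal markers in the second, and the part of doublets was not tested. Ackr1, the atypical receptor that takes up chemokines on venules, lay mainly in the same endothelial-like class, with 373 of its 406 UMIs in MG2, and it fell by 8.53 on the log2 scale in MT2 against MG2 (SE 0.60, adjusted p = 2.50e-09). Endothelial-like cells were 3.77% of MG2 cells and 0.436% of MT2 cells, and the part of this in the Ccl21a and Ackr1 results was not tested.

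In MT1 the sources separated by gene. The Prl2c3 cluster held 58.8% of the Ccl2 UMIs (52.5 to 63.8% over the 5 libraries), the Tnfrsf11b cluster 19.4%, fibroblast-like cells 11.7% and the Sfrp1 cluster 9.64%, beside 19.1%, 30.9%, 1.58% and 46.0% of all UMIs. Per UMI of the class, Ccl2 stood at 859 CPM in the Prl2c3 cluster and at 2078 CPM in fibroblast-like cells. It stood at 176 CPM in the Tnfrsf11b cluster and at 58.5 CPM in the Sfrp1 cluster. Ccl7 divided between the Prl2c3 cluster (53.6%, 274 CPM) and fibroblast-like cells (37.9%, 2354 CPM), whereas fibroblast-like cells held 91.7% of the 48 Ccl11 UMIs and 83.8% of the 117 Ccl8 UMIs (from 30% in MT1 replicate 2 up to 100% in others). So Ccl2 and Ccl7 were found in the Prl2c3 cluster and Ccl8 and Ccl11 hardly at all, with 11 and 1 UMIs in 1345 cells. The Prl2c3 cluster had 1973 to 2279 CPM of the 15 fibroblast markers summed against 30473 to 38346 CPM in the fibroblast-like cells of MT1. Of these markers Pi16 and Clec3b were at 0 and Dcn was raised in the cluster, as were 5 of 12 mesenchymal markers (Vim, Twist1, Cdh2, Prrx1 and S100a4). It had 1774 to 2243 CPM of the 10 epithelial markers. Another 45 cells of the cluster came from MG2, where Ccl2 stood at 76.4 CPM (8 UMIs) in replicate 1 and at 200.2 CPM (28 UMIs) in replicate 2.

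Ccl20, Ccl9 and Ccl5 lay in the epithelial clusters of MT1. The Tnfrsf11b cluster held 78.7% of Ccl20, 71.9% of Ccl9 and 48.5% of Ccl5 UMIs with 30.9% of all UMIs, and the Sfrp1 cluster held 18.9%, 21.8% and 41.7%. In the Tnfrsf11b cluster, which led with Tnfrsf11b, Ubd, Cd74 and Ifi27l2a beside 9 of 10 epithelial markers, Ccl20 stood at 191 ± 63.3 CPM (SD, n = 5 libraries) against 35.3 ± 14.9 CPM in the Sfrp1 cluster. Ccl9 stood at 83.3 ± 10.1 CPM against 18.1 ± 5.44 CPM, and no library of the Sfrp1 cluster reached a library of the Tnfrsf11b cluster for either gene. For Ccl5 the levels of 56.8 ± 29.4 and 37.5 ± 23.8 CPM overlapped. At 800 UMIs per cell a Ccl20 UMI was found in 8.06% of Tnfrsf11b cluster cells and in 0 of 138 fibroblast-like cells of the same tumor, which allows a share of cells with a UMI of up to 2.17% (3 of 138 cells) and sets no limit on cells expressing the gene. The median depth was 2047 UMIs in the first and 1911 in the second, and without thinning the share was 15.6% in the Tnfrsf11b cluster. Immune marker genes were present in both epithelial clusters (summed over 12 markers, 331 to 406 CPM in the Sfrp1 and 414 to 513 CPM in the Tnfrsf11b cluster), with Coro1a and Cd53 at 0. In the Tnfrsf11b cluster 4 of the 12 were raised (Arhgdib, Srgn, Lcp1 and Cytip), as were 3 of 9 dendritic markers (H2-Ab1, H2-Eb1 and Cd74), and 2 immune-like cells were found in MT1. The part of immune cells in the levels of Ccl20, Ccl9 and Ccl5 was not tested.

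**Figure D3:**
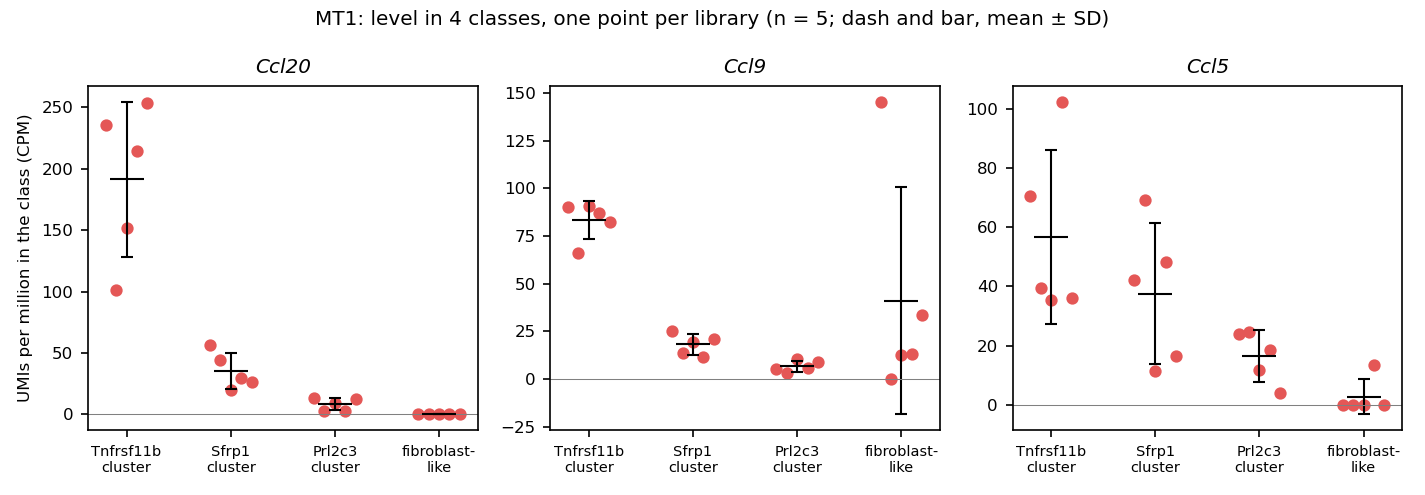
Level of Ccl20, Ccl9 and Ccl5 in 4 cell classes of MT1, in CPM of the class, with 1 point per library and the mean ± SD over 5 libraries. Ccl20 and Ccl9 are higher in the Tnfrsf11b cluster than in the Sfrp1 cluster in every library, Ccl20 is at 0 in fibroblast-like cells, and 1 library sets the high Ccl9 mean of fibroblast-like cells.

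Because Ccl20 and Ccl9 shared a source in MT1, their promoters are shown (RefSeq, GRCm38.p6, 250 bases before to 50 bases after the start), at chr1:83116516-83116815 on the plus strand for Ccl20 and chr11:83578587-83578886 on the minus strand for Ccl9. RefSeq's table gave a promoter for 5 of the 9 members, Ccl8, Ccl9, Ccl20, Ccl21a and Ccl28. Capitals mark matches to the NF-kB motif, to AP-1 (TGANTCA) or to the TATA box (TATAAA, on the gene's strand), the first 2 on either strand. STAT and C/EBP motifs were searched too and neither had a match in these 2 windows; no matches overlap.
Ccl20: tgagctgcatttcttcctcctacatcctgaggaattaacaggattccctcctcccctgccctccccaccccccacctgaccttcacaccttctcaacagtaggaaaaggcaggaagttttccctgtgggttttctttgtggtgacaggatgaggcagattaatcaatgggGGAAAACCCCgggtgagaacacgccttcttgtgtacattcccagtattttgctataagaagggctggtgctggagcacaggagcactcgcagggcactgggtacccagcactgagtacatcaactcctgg
Ccl9: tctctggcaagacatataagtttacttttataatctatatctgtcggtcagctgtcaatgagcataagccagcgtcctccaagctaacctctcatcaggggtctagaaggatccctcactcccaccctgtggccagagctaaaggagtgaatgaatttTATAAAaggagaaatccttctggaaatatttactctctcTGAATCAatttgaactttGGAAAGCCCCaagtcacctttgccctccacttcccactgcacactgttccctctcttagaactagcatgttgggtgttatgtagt
The Ccl20 promoter held an NF-kB match at -80 to -71. The Ccl9 promoter held one at -35 to -26, with an AP-1 match at -53 to -47 and a TATAAA string at -92 to -87. Of 32851 promoters of this length, 8.46% held the NF-kB motif, 7.81% AP-1 and 8.32% the TATAAA string. A match is a string of letters in this window and was not tested as a binding site. The NF-kB motif was not found in the windows of Ccl8, Ccl21a and Ccl28.

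In MT2 the 3 large unnamed clusters held the chemokines that lay in fibroblast-like cells in the glands. Together these clusters, led by Grem1, Cenpe and Lce1g, held 96.7% of the 34938 Ccl2 UMIs, 95.2% of the 14549 Ccl7 UMIs and 97.6% of the 9441 Ccl11 UMIs. They made up 40.8%, 34.6% and 19.3% of MT2 cells, so that their number alone gives them most UMIs of a gene found in all cells. Pooled over libraries, Ccl2 stood at 839, 805 and 839 CPM in the 3 clusters, Ccl11 at 234, 215 and 224 CPM and Ccl7 at 383, 289 and 348 CPM. In each library Ccl2 was lower in the Lce1g cluster (430, 1020 and 767 CPM) than in the Grem1 cluster (657, 1084 and 876 CPM), whereas Ccl11 was lower there in MT2 replicate 1 (132 against 215 CPM) and near it in the other two (240 and 257 against 237 and 254 CPM). In the fibroblast-like cells of MT2, Ccl2 stood at 890 CPM, Ccl11 at 193 CPM and Ccl7 at 621 CPM. Library by library, Ccl7 was higher in these cells than in the Grem1 cluster (428, 873 and 650 against 303, 526 and 375 CPM) and Ccl11 was lower (198, 201 and 181 against 215, 237 and 254 CPM). Ccl2 was slightly higher in each (664, 1144 and 956 CPM), and with 3 libraries these differences within a library were not tested. Ccl8 stood at 129 CPM in fibroblast-like cells against 8.37, 6.19 and 5.95 CPM in the 3 clusters, which still held 70.5% of its UMIs by their number. The Grem1 cluster had 4750 to 5528 CPM of the 15 fibroblast markers summed, against 26432 to 44214 CPM in the fibroblast-like cells of MT2. At 800 UMIs per cell a Ccl2 UMI was found in 33.7 to 35.5% of the cells of the 3 clusters. In the 45 endothelial-like cells of MT2 a Ccl2 UMI was found in 11.1% (3.71 to 24.1%) and a Ccl11 UMI in 4.44% (0.543 to 15.1%), at a median of 2130 UMIs per cell, and 15 of these cells lay in a subcluster led by Lce1g and Grem1 with 8 of 15 fibroblast markers; the part of free RNA or doublets in these shares was not tested. Without thinning, Ccl2 was found in 24.4% of the endothelial-like cells and in 59.8% of the Grem1 cluster.

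Ccl9 in MT2 had another source than in MT1. Immune-like cells held 283 of its 311 UMIs (86.4 to 94.8% over the 3 libraries) with 1.26% of all UMIs, at 526 CPM, while the Grem1 cluster stood at 0.716 CPM. Among these, 124 UMIs lay in a subcluster with 12 of 15 macrophage or monocyte markers (44 of 65 cells) and 94 in a subcluster led by Ckb, Ctsk, Mmp9 and Acp5 (25 of 39 cells), genes known from osteoclasts, in which no marker list was reached. The other 65 lay in a subcluster led by granzyme genes that also carried 10 of 15 fibroblast markers. Ccr1, the receptor of Ccl9, lay in the same class, with 137 of its 162 UMIs in MT2. The 201 Ccl5 UMIs of MT2 were unevenly held, with 83.6% in the Cenpe cluster, in 40 cells over the whole tumor.

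When fibroblast-like, endothelial-like and immune-like cells were left out of the sums, the log2 difference of Ccl2 between tumor and gland was larger in both mice. Ccl2 stood at 18.0 CPM (scaled by TMM, edgeR's normalization, as are the other levels after the stromal classes were left out) in MG1 and 268 in MT1, a log2 fold change of 3.99 (SE 0.33, adjusted p = 2.66e-08), and at 11.1 in MG2 and 858 in MT2, a change of 6.27 (SE 0.32, adjusted p = 8.53e-12). Over all cells the TMM-scaled means were 191 in MG1 and 299 in MT1, and 136 in MG2 and 863 in MT2. Leaving out these classes thus lowered mainly the gland sums, where fibroblast-like cells held most UMIs of Ccl2 and Ccl7. Ccl7, which fell in MT1 over all cells, was 1.52 higher there without these classes (SE 0.35, adjusted p = 0.00110), a call lost without MG1 replicate 1 (0.79, adjusted p = 0.125), and 5.92 higher in MT2. Ccl11 was 6.93 higher in MT2 (SE 0.30, adjusted p = 1.10e-12) and 4.01 lower in MT1 (SE 0.75, adjusted p = 0.000192). Ccl9, higher in MT2 over all cells, was lower there by 2.29 (SE 0.37, adjusted p = 2.83e-05) with the immune-like cells left out, at 0.682 CPM against 3.44 in MG2. The immune-like cells had held 91.0% of the Ccl9 UMIs of MT2, so the lower sum follows from the choice of classes left out. In all, 6 of 8 members were called in mouse 1 (59.3% of 13654 genes) and 8 of 8 in mouse 2 (67% of genes). The Ccl5 call in mouse 2 (3.73) was not kept with MG2 replicate 2 left out (3.53). With the Grem1 cluster left out as well, an alternative chosen after seeing the data, 8 of 8 were called in mouse 2 (67% of 13652 genes), with Ccl2 6.15 higher. With the mouse as the replicate, edgeR called 0 of 8 members and 0% of genes, with 2 members at an unadjusted p under 0.05, and DESeq2 called 4, Ccl2, Ccl5, Ccl7 and Ccl21a, and 6.19% of genes.

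Summed over the fibroblast-like class, Ccl2 and Ccl7 were lower in MT2 than in MG2. Ccl2 stood at 2559 and 3870 CPM of the class in the MG2 libraries and at 664, 1144 and 956 CPM in MT2, with no overlap, and fell by 1.96 on the log2 scale (SE 0.27, adjusted p = 9.82e-06), and Ccl7 fell by 1.56 (SE 0.30, adjusted p = 0.000384). In mouse 1 the differences of 0.58 for Ccl2 (SE 0.27, adjusted p = 0.0887) and 0.53 for Ccl7 (SE 0.28, adjusted p = 0.145) did not pass, although all 5 MT1 libraries lay above both MG1 libraries for Ccl2 (1737 to 2232 against 1112 and 1230 CPM) and Ccl7 (1737 to 2972 against 1313 and 1461 CPM). Ccl8 rose by 1.78 in MT1 against MG1 (SE 0.52, adjusted p = 0.00925) and Ccl11 fell by 1.60 (SE 0.36, adjusted p = 0.00143). The groups overlapped for both, with Ccl8 in MT1 replicate 2 (37.5 CPM) below both MG1 libraries (54.1 and 95.2 CPM) and Ccl11 in MT1 replicate 1 (388 CPM) between them (278 and 453 CPM). In mouse 2 the differences of Ccl8 and Ccl11, -0.50 and -0.68, did not pass (adjusted p = 0.515 and 0.179). With the Grem1 cluster counted as fibroblast-like, an alternative chosen after seeing the data, Ccl8 was lower in MT2 by 3.62 (adjusted p = 2.05e-06), and Ccl2 passed in mouse 1 (0.65, adjusted p = 0.0382). In all 2 of 4 members tested were called in each mouse, beside 38.3% and 21.8% of 3774 genes. Different subclusters held the fibroblast-like class in the 4 groups. In MG1, 74 of 126 cells were in a subcluster with 9 of 10 epithelial markers and 30 in one led by Smpd3 and Car4, and in MG2, 84 of 136 were in one led by Prg4 and Apod. In MT1, 108 of 138 were in one with 5 epithelial and 5 mural markers. In MT2, 161 of 288 were in one led by Ereg and Mmp13. Another 74 were in one with 8 of 10 cell cycle markers that led with Lce1g and Klra4, and Lce1g also led a large unnamed cluster of MT2. Ccl2 stood at 371 and 902 CPM in these MT2 subclusters, at 2754 CPM in another of 31 MT2 cells and at 7834 CPM in one of 4. In the 84 MG2 cells it stood at 4207 CPM. The part of this in the differences was not tested.

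**Figure D4:**
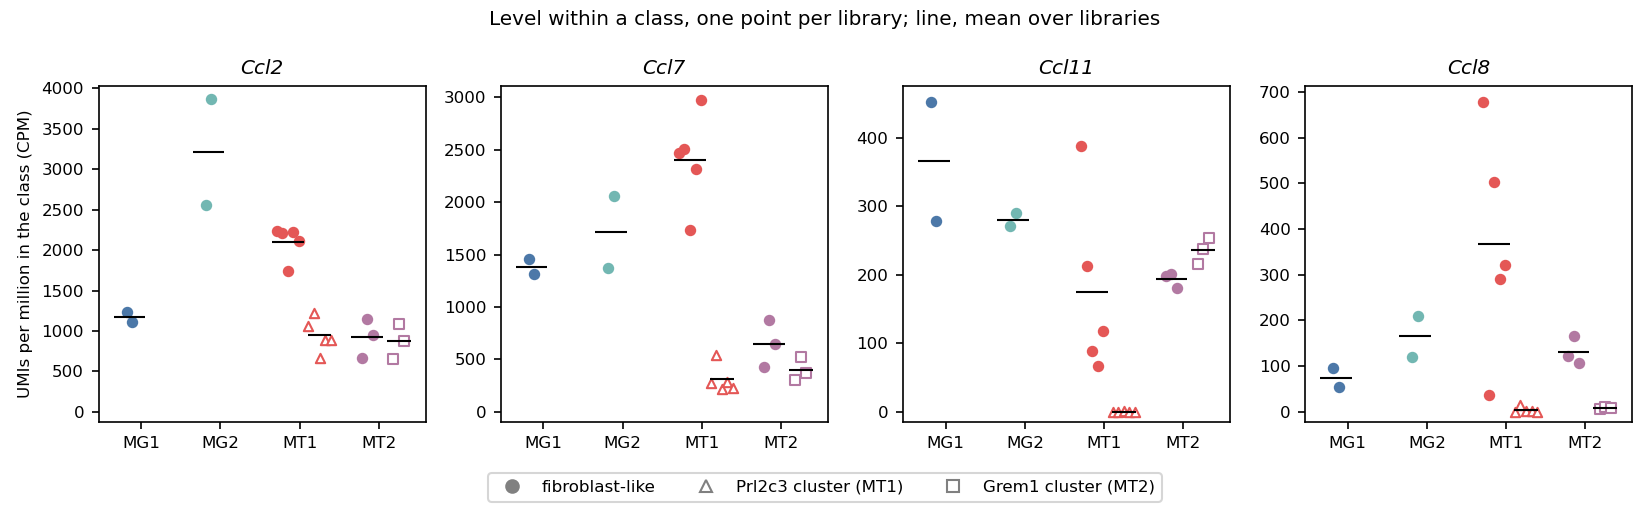
Level of Ccl2, Ccl7, Ccl11 and Ccl8 in CPM of the class, with 1 point per library and a line at the mean: filled circles are fibroblast-like cells, triangles the Prl2c3 cluster of MT1 and squares the Grem1 cluster of MT2. In MT2 the Grem1 cluster lies near the fibroblast-like level for Ccl2 and Ccl11, and in MT1 the Prl2c3 cluster carries Ccl2 and Ccl7 but almost no Ccl11 or Ccl8.

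Ccl7 was found more often in cells with a Ccl2 UMI than in cells without, in each of 10 classes with libraries pooled. The exception by library was the Tnfrsf11b cluster of MT1 (1.55% and 0.568%), where 2 of 4 libraries were higher. Within the Grem1 cluster, at 800 UMIs per cell, 34.2% of cells with a Ccl2 UMI also had a Ccl7 UMI against 14.3% of cells without, and this held in 3 of 3 libraries. In the Prl2c3 cluster of MT1 the shares were 25.9% and 6.79% (5 of 5 libraries), and in the fibroblast-like cells of MG2 75.3% and 27.7% (2 of 2 libraries). For Ccl11 in the Grem1 cluster they were closer, at 18.7% and 12.5%. In the Tnfrsf11b cluster, Ccl20 was found in 21.2% of cells with a Ccl2 UMI and in 6.95% of those without (4 of 4 libraries with enough cells), and Ccl9 in 9.84% and 5.20%. Cells of 1 library are not replicates, and these shares are given with no test. Most positive cells held few UMIs: the median was 3 UMIs of Ccl2 in positive MT2 cells with a highest count of 120, and the 10% of positive cells with the most UMIs held 40.5% of the transcripts.

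**Figure D5:**
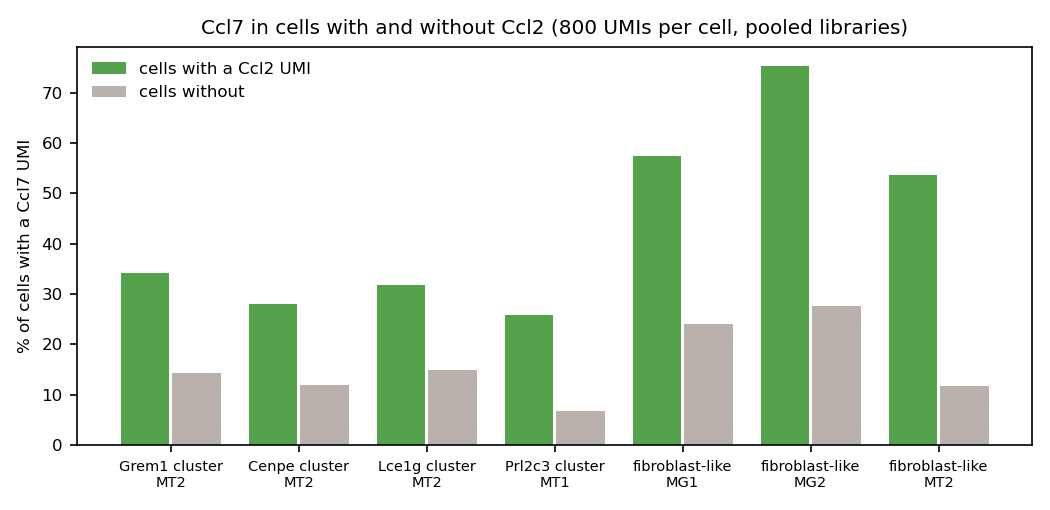
Percent of cells with a Ccl7 UMI among cells with (green) and without (grey) a Ccl2 UMI, at 800 UMIs per cell and pooled over the libraries of a group. Ccl7 is more frequent beside Ccl2 in each of the 7 classes drawn.

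Of the members, 6 lie on chromosome 11 of GRCm38, and 4 of them, Ccl2 (82035571 to 82037453), Ccl7 (82045712 to 82047525), Ccl11 (82057823 to 82062955) and Ccl8 (82115185 to 82116799), follow one another on the plus strand within 81229 bases. Ccl5 (83525778 to 83530518) and Ccl9 (83572919 to 83578636) lie on the minus strand further along. Over 56 sums of a library and a class, the Spearman correlation of log2(CPM + 1), as a description of sums that share libraries and clusters, was 0.90 for Ccl2 with Ccl7, 0.83 for Ccl7 with Ccl8, 0.77 for Ccl8 with Ccl11 and 0.59 for Ccl2 with Ccl11. Across the other set it was 0.71 for Ccl5 with Ccl20 and 0.47 for Ccl9 with Ccl20, while Ccl2 with Ccl20 gave -0.18. Of the 56 sums, Ccl20 was above 0 in 19, Ccl21a in 15, Ccl5 in 30 and Ccl9 in 38, so their ranks hold many ties at 0. By the same measure, among 6304 genes that are not chemokines, those most like Ccl2 were Ugdh (0.89), Plod2 (0.87) and Loxl1 (0.87), and those most like Ccl7 were Aebp1 (0.91), Loxl2 (0.88) and Rnase4 (0.87). Of these genes Ccl8 was most like Mmp19 (0.89), Col3a1 and Loxl2 (both 0.81), and Ccl11 most like Emilin2, Hsd11b1 (both 0.84) and Mmp19 (0.81). Loxl1 and Loxl2 crosslink collagen, Plod2 hydroxylates it and Col3a1 is a collagen chain. Ccl5 was most like Cdc123 (0.85) and Pea15a (0.84), Ccl9 most like Commd6, Rnf5 and Uqcrfs1 (each 0.80), and Ccl20 most like Cdc40, Mpzl1 (both 0.78) and H2-Q7 (0.77). Ccl21a had no close match, with Csn1s2a at 0.58, Krt17 at 0.58 and Foxo1 at 0.57.

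Among the rest of the pathway, 8 of 15 other CC ligands were in the table and 4 could be tested. In MT1 against MG1, 1 rose and 0 fell (33.1% and 28.8% of all genes), and in MT2 against MG2, 3 rose and 0 fell (32.3% and 33.3%). With the stromal classes left out, 1 and 2 of 3 tested rose and 0 fell (59.3% and 67% of all genes called). Ccl25, a chemokine best known from gut and thymus, rose in both, by 1.93 (SE 0.25, adjusted p = 6.46e-06) and 1.41 (SE 0.18, adjusted p = 3.58e-06). Ccl6 rose by 2.07 in MT2 (adjusted p = 0.0204), with 188 of its 205 UMIs in immune-like cells, and Ccl4 rose there too (adjusted p = 0.00764), with 102 of 134 UMIs in the Cenpe cluster, where Ccl5 also lay.

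Of 15 receptors, 9 were in the table and 5 were tested; 2 rose and 1 fell in MT1, and 2 rose and 2 fell in MT2, where 61.9% and 65.6% of all genes were called. With the stromal classes left out, 4 were tested, of which 2 rose and 0 fell in MT1 and 1 rose and 3 fell in MT2 (59.3% and 67% of all genes called). Ackr3, a scavenger of chemokines that binds Cxcl12, fell by 2.45 in MT1 (SE 0.25, adjusted p = 5.09e-07) and rose by 2.26 in MT2 (SE 0.26, adjusted p = 9.65e-07). Fibroblast-like cells held 83.2% of its UMIs in MG1, and with the stromal classes left out the difference in MT1 was -0.23 and did not pass (adjusted p = 0.630), while it was 3.23 in MT2 (adjusted p = 3.70e-08), where the Grem1 cluster held 2781 of its 5163 UMIs. Ccrl2, an atypical receptor that presents chemerin, rose by 0.86 in MT1 (SE 0.30, adjusted p = 0.0206), where the Tnfrsf11b cluster held 164 of 249 UMIs, and fell by 2.82 in MT2 (SE 0.26, adjusted p = 5.87e-08). Ccr2 was called higher in MT1 (adjusted p = 0.0275), with 41 UMIs there against a listed 0 in MG1. Of these 41, 24 lay in the Sfrp1 cluster, which carried epithelial markers. Ccr1 was called higher in MT2 (adjusted p = 0.000221), with 162 UMIs against a listed 0 in MG2, and 137 of them lay in immune-like cells.

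Of 15 inducers and regulators, 13 were in the table and 11 were tested, of which 5 rose and 5 fell in MT1 and 2 rose and 2 fell in MT2, beside the same 61.9% and 65.6% of all genes. With the stromal classes left out, 5 rose and 3 fell in MT1 and 6 rose and 2 fell in MT2, beside 59.3% and 67% of all genes called, with Il6 among those higher in MT2 (3.84, SE 0.22, adjusted p = 3.40e-11). In MT1 Tnf, an inducer of NF-kB, rose by 1.89 (SE 0.39, adjusted p = 0.000550), as did Nfkb2 (1.21), Nfkbiz (1.31), Nfkbia (0.77) and Tnfaip3 (0.83), of which the last 2 encode inhibitors of the pathway. Nfkb1 (-1.66), Il1r1 (-1.86), Il6 (-3.91), Tnfrsf1a (-0.56) and Relb (-0.45) fell. In MT2 Tnf fell by 2.73 (SE 0.35, adjusted p = 3.61e-06) and Relb fell by 0.44, whereas Il1r1 (1.45) and Tnfaip3 (1.31) rose. The median change of this list was -0.02 in MT1 and 0.36 in MT2, against 0.09 and -0.04 over all genes.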

How the data were processed

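Single-cell Drop-seq libraries were sequenced by the authors, processed with Drop-seq tools and STAR against Ensembl GRCm38.p6, and deposited as UMI counts per gene and cell in a single table. Per the authors' methods, genes in under 4 cells of a count table and cells with extreme gene numbers or mitochondrial shares had been removed. Every deposited cell had at least 800 genes (21157 cells, 21743 genes), and libraries shared 0 to 7 cell barcodes per pair. Members and gene lists were chosen with earlier results of these data known.

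Cells were clustered with scanpy 1.11.5 (3000 variable genes, 30 components, 20 neighbours, Leiden resolution 0.6), leaving out 45 chemokine and receptor genes. A cluster had to have at least 3 markers of a type raised by 1 on the log2 scale to be named. Names were given after the markers were seen, and the Grem1 cluster (3 of 15 fibroblast markers) was left unnamed; leaving it out as well, or counting it as fibroblast-like, were alternatives chosen after seeing the data. The doublet caller marked 44 cells (0.208%) and is taken not to have worked, so none were removed; leaving out the highest 5% of scores was an alternative. Fibroblast-like and immune-like subclusters hold genes of other types.

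Levels are CPM (UMIs per 1e6 UMIs of a library or class). Counts summed per library were tested with edgeR 4.0.16 (quasi-likelihood test, TMM, filterByExpr, all 12 libraries in 1 fit, Benjamini-Hochberg over all genes, threshold 0.05) in R 4.3.3; SE is the log2 fold change divided by the root of F. The mouse block comes from the mouse given in the labels. Alternatives were DESeq2 1.42.0, RLE scaling, no low-count filter, fewer groups, each library left out, another resolution and other thinning depths. The script was tested on simulated counts. Named genes are the 9 members, genes of 3 fixed lists that passed a test or held 50 UMIs, and the 3 genes most like each member with 100 UMIs, of which one is not reported here. Replicates were numbered in accession order.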

Additional observations from a re-analysis of the deposited data

Results flagged for a closer look

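In groups of 5 libraries, where chance alone sets about 1 in 20 apart, MT1 replicate 2 stood apart for 2 values: the share of cells with a Ccl11 UMI was 0.817%, against at most 0.244% in the other 4 libraries, and Ccl21a stood at 43.8 CPM, against at most 0.840 CPM. Fibroblast-like cells, which held 91.7% of the Ccl11 UMIs of MT1, were 3.54% of its cells, against 1.40 to 1.76% in the other 4, and their part in the Ccl11 share was not tested. The Ccl21a level comes from a single cell with 117 UMIs.

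The effect of tumor against gland differed between the mice by the interaction term of edgeR (MT1 against MG1 minus MT2 against MG2, log2 scale). Over all cells the difference was -2.01 for Ccl2, -3.43 for Ccl7, -1.76 for Ccl8, -8.71 for Ccl11, 9.62 for Ccl9, 18.10 for Ccl20 and 10.75 for Ccl21a, with adjusted p from 6.22e-10 to 0.0142. With fibroblast-like, endothelial-like and immune-like cells left out it was -2.28 for Ccl2, -4.39 for Ccl7, -5.34 for Ccl8, -10.94 for Ccl11, 13.04 for Ccl9 and 18.03 for Ccl20, with adjusted p from 9.57e-09 to 0.0187. The sizes for Ccl9, Ccl20 and Ccl21a rest on groups listed at 0 and depend on the prior count of the fit. The Ccl21a difference was lost without MT1 replicate 2 (6.69, adjusted p = 0.0998), and that of Ccl8 with the stromal classes left out was lost without MG1 replicate 2 (-3.64, adjusted p = 0.275). Leaving out the highest 5% of doublet scores also ended both calls (6.19, adjusted p = 0.0990, and -4.81, adjusted p = 0.0640). With 1 animal per pair, the mouse, the tumor and the handling of each cannot be told apart.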

How the results depend on the processing

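Over all cells, 521 values of single members kept their direction and side of the threshold under an alternative, 14 lost the call, 9 gained it and 2 reversed. Ccl21a in MT1 against MG1 turned from -1.06 to 4.28 without MG1 replicate 2 (-5.19 to 4.28 with any 1 library left out), Ccl8 with the stromal classes left out turned from -0.50 to 1.24 without MG1 replicate 2 (-2.24 to 1.24), and Ccl11 with the mouse as the replicate turned from -0.11 to 1.75 without the mouse block; none of the reversed values passed the test, and the cause was not tested. With DESeq2 the mouse-replicate fits called 2 members over all cells and 4 with the stromal classes left out, where edgeR called 0. Ccl8 in MT2 against MG2 passed under 5 alternatives (0.64 to 1.15, adjusted p = 0.0176 to 0.0499): no low-count filter, only the groups compared, and without MG1 replicate 2, MG2 replicate 2 or MT2 replicate 1. The share of cells with a UMI of any member moved with depth, to 23.5%, 12.4%, 30.8% and 79.7% (MG1, MG2, MT1, MT2) without thinning and to 9.57%, 25.4% and 65.4% (MG2, MT1, MT2) at 1500 UMIs, and MG1 stood at 11.4% to 19.0% with 1 library left out. Thinning moved the leading sources in percent of UMIs to 53.1 for Ccl2 in MT1 and, in MT2, to 95.6 for Ccl2, 94.0 for Ccl7, 100 for Ccl9 and 97.0 for Ccl11, which was 97.4 at the finer clustering and 98.1 without the top doublet scores. The endothelial-like share of Ccl21a in MT1 was 0 without the top doublet scores, and 0 to 96.7 with 1 library left out. For the difference between the mice a fit on only the groups compared is the fit on all groups and was not run apart. Depth limits Ccl28, Ccl8 and all values in MG1 replicate 2 (105 cells).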
